A study of Mus musculus with 4 samples.

Results

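The Dnaj genes encode the J-domain proteins, the co-chaperones of the HSP70 chaperones. They were examined here in hair cells and non-hair cells sorted from mouse cochleae, with and without gentamicin, an aminoglycoside antibiotic that kills hair cells. Members were taken by symbol: every gene named Dnaja, Dnajb or Dnajc followed by a number. Of the 23420 genes in the deposited tables, 45 were members, with 4 in class A, 13 in class B and 28 in class C. A gene was tested when it held at least 100 reads over the 12 replicates, which left 16088 genes, 41 of them members.

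The cochleae came from postnatal day 1 Atoh1-GFP transgenic mice on a CD-1 background, in which an Atoh1 enhancer drives the green fluorescent reporter. All were kept in organ culture overnight in medium with penicillin under low oxygen. For the last 3 h before dissociation, gentamicin was present at 0.5 mM in the treated groups and absent from the control groups, and GFP-positive cells were collected as hair cells (HC) and GFP-negative cells as non-hair cells (NHC). Each of the 4 groups had 3 replicates, and the non-hair cell fraction holds supporting cells together with cells of the surrounding tissue.

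A J domain binds an HSP70 and stimulates its ATPase, so that the chaperone closes on a client protein. Class A proteins carry the zinc finger region of bacterial DnaJ, class B proteins lack it but keep a glycine- and phenylalanine-rich stretch, and class C proteins share little beyond the J domain and are often tied to 1 place or task in the cell. Some members, such as Dnajb1, are textbook targets of heat shock factor, and some residents of the endoplasmic reticulum (ER), such as Dnajb9, Dnajb11 and Dnajc3, are targets of the unfolded protein response. In cochlear hair cells HSP70 chaperones are best known from work on protection against aminoglycosides and noise.

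The letters of the elements through which these stress responses act were looked for in RefSeq promoters (GRCm38.p6; 250 bases before to 50 after each start, both strands), where 37 of the 45 members had 50 promoters. The heat shock element core, searched as GAANNTTC or TTCNNGAA, was in 8 of the 50 member promoters (16%) against 15.1% of all 32851 promoters, a share close to the background. A run of 3 units (GAANNTTC, 2 bases and GAA, or TTCNNGAA, 2 bases and TTC, each overlapping the core) was in 2 member promoters, both of Dnajb6, against 0.603% of all. These 2 promoters overlap and hold the same element, so 1 element was counted for both. Both are also in the core count, where the 8 promoters belong to 7 genes. The ER stress element, CCAAT and CCACG with 9 bases between them, was in 1 member promoter, that of Dnajc3, against 0.119% of all. The CRE core TGACGTCA was in 1 member promoter, that of Dnajc27 (1.79% of all), and the AP-1 core TGANTCA in 0 (7.81% of all). These matches describe letters, not binding. The stretches printed here hold the core in a gene whose score rose with gentamicin in hair cells (Dnajb4), in a pair of genes much higher in hair cells than in non-hair cells (Dnaja4, Dnajb6), and the only ER stress element found (Dnajc3). The other tested genes with the core went different ways between HC control and NHC control (log2). Dnajc27 was higher in hair cells (0.86) and Dnajc10 lower (-0.29). Dnajb4 (0.16) and Dnaja1 (-0.08) did not reach an adjusted p under 0.05 (limma). Fixed letters of each match are in capitals, and each stretch lies before a RefSeq start of its gene on the strand named. In GENCODE M21 the Dnajb4, Dnaja4 and Dnajb6 genes begin further upstream, so their stretches lie within the annotated gene. The Dnajb6 stretch is kept to 30 bases because an annotated exon of that gene covers it.
Dnajb4, chr3:152193846-152193995, minus strand: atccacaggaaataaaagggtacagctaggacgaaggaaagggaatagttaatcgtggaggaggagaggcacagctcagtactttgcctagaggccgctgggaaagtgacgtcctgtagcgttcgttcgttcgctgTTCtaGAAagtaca
Dnaja4, chr9:54699414-54699514, plus strand: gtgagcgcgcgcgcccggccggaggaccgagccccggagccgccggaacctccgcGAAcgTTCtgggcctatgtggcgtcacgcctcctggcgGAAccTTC
Dnajb6, chr5:29735844-29735873, plus strand: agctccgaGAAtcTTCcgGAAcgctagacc
Dnajc3, chr14:118937782-118937931, plus strand: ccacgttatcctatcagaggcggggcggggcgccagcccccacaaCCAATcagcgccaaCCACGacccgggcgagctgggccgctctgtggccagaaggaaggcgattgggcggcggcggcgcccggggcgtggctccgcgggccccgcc

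The values are the authors' normalized read scores, which are reads scaled per replicate with 1 added. They are not divided by gene length, so a gene's scores are compared between samples, and levels between genes only as score minus 1 per kb of exon. Recovered reads on genes numbered 22400402–28151943 per replicate, so that 1 read was worth 0.0351–0.0461 of a score. The hair cell markers Atoh1, Pou4f3, Myo6, Myo7a, Gfi1 and Otof summed to scores of 10550–10980 in HC control and 195–233 in NHC control, where Atoh1, Pou4f3 and Gfi1 each had a mean score under 2. Markers of other cell types were present in the HC samples and were lower after gentamicin, with mesenchyme markers at 174–440 in HC control and 89.0–142 in HC gentamicin (4728–6486 in NHC control), and Schwann cell markers at 137–171 and 59.6–114 (358–508 in NHC control). Supporting cell markers were also lower in sum, at 868–1034 and then 427–693, but all 6 were higher in HC control than in NHC control, where they summed to 364.5–591 (Lfng and S100a1 called), so this list does not mark the non-hair cells here. Macrophage markers all had a mean score under 2 in both HC groups, and hair cell markers summed to 8843–9906 in HC gentamicin. In such bulk samples, fewer cells of a type and less RNA per cell cannot be told apart, and the part of these shifts in the values given here was not tested.

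Summed over the 45 members, the Dnaj family took 0.263% ± 0.0055 (SD, n = 3) of the reads on genes in HC control and 0.303% ± 0.0053 in HC gentamicin. In NHC control it took 0.214% ± 0.0065 and in NHC gentamicin 0.23% ± 0.0063. As score minus 1, the sums were 2708 ± 61.9, 2918 ± 76.7, 2171 ± 51.2 and 2289 ± 49.4 in the same order. A share also depends on its total. Relative to the geometric mean of all replicates, the total over all genes was 1.028–1.032 in HC control and 0.9538–0.9758 in HC gentamicin. Per kb of exon, the 4 class A genes summed to 145 ± 8.69 (SD, n = 3) in HC control, 180 ± 12.5 in HC gentamicin, 86.9 ± 2.99 in NHC control and 93.5 ± 2.48 in NHC gentamicin. The 13 class B genes summed to 177 ± 4.71, 172 ± 4.72, 118 ± 5.90 and 121 ± 7.57 in the same order, and the 28 class C genes to 260 ± 3.28, 276 ± 2.68, 259 ± 3.00 and 278 ± 11.7. The hair cell samples lay above the non-hair cell samples in the class A and class B sums, and the class C sums of the populations lay side by side. These sums are descriptions with no test.

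**Figure D1:**
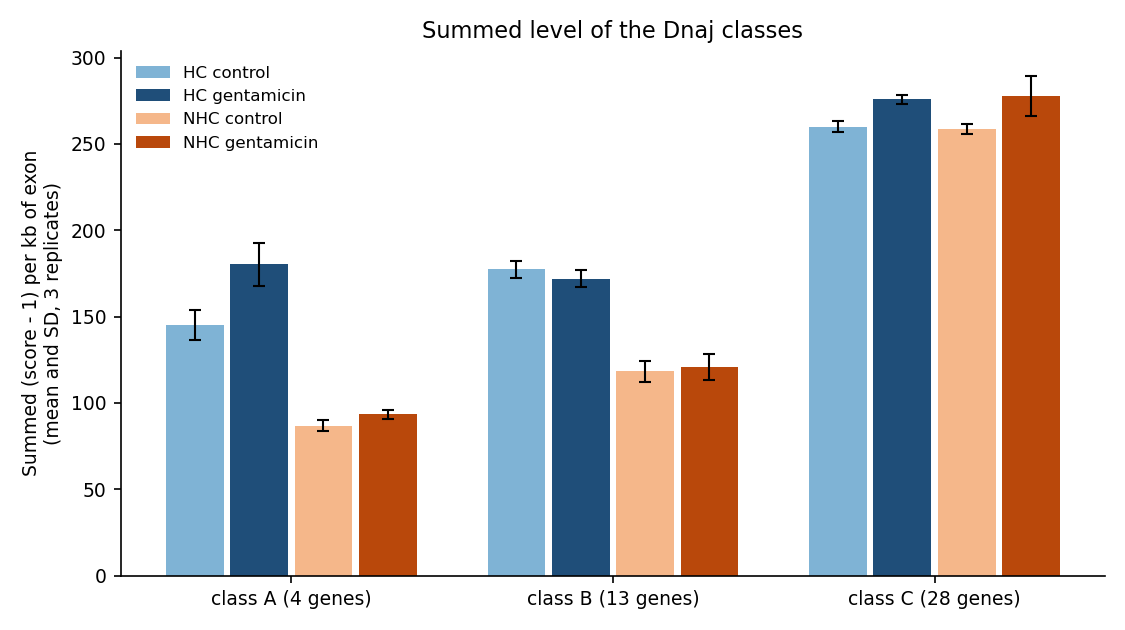
Summed level of each Dnaj class, as score minus 1 per kb of exon (vertical axis, linear from 0), in the 4 groups. Bars are means and error bars SDs of 3 replicates. Class A stood at 145 in HC control and 180 in HC gentamicin, against 86.9 and 93.5 in non-hair cells.

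Per kb of exon, Dnaja2, a cytosolic class A protein that refolds clients with HSP70, had the highest level of all members in every group, at 69.2 ± 6.97 (SD, n = 3) in HC control, 88.8 ± 4.47 in HC gentamicin, 42.3 ± 1.40 in NHC control and 44.2 ± 1.18 in NHC gentamicin. In HC control it was followed by Dnaja4 (40.6 ± 1.46), Dnajb11 (39.9 ± 2.42) and Dnajb2 (38.6 ± 0.509), neighbours that did not differ beyond their spread. In NHC control the order was Dnajb1 (32.7 ± 3.01), Dnajc10 (32.0 ± 1.04) and Dnajc7 (29.3 ± 1.14). The ranking depends on the length used. With the length of the principal transcript, a choice made after seeing the data, Dnajb6 was highest in HC control (125) and Dnaja2 was at 70.6.

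The first comparison asked which members distinguish hair cells from non-hair cells without the drug. Of the 41 members tested, 25 differed between HC control and NHC control at an adjusted p under 0.05 (limma on log2 scores, Benjamini-Hochberg over all genes tested), 15 higher in hair cells and 10 lower. Over all genes tested, 31.9% were called higher and 42.1% lower. The median log2 difference was 0.09 over the members and -0.12 over all genes. Median-of-ratios scaling, which moved the median of all genes by 0.11 to -0.01, put the members' median at 0.21 and the calls at 19 higher and 7 lower, against 36.6% and 37.6% of all genes. With the replicate numbers as a block, Dnajc14 passed as well (adjusted p = 0.0467 against 0.0515). By class, 2 of 4 tested class A members were higher and 1 lower, 6 of 11 class B members higher and 3 lower, and 7 of 26 class C members higher and 6 lower. Class B had the highest median (0.82), class A stood at 0.31 and class C at 0.03.

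The member that set the populations apart most was Dnajb13, a radial spoke protein of motile cilia and sperm tails. Its scores were 24.7, 23.7 and 25.1 in HC control and 1.08, 1.24 and 1.27 in NHC control. The NHC values sat close to the score of 1 that stands for no reads, far from every HC value. The difference was 4.36 ± 0.18 (log2, SE; adjusted p = 2.02e-09, limma), and since the added 1 weighs on so low a score, it was 6.89 by limma voom on recovered reads. In HC gentamicin, Dnajb13 scored 22.8, 20.2 and 18.1 (-0.27 ± 0.18, adjusted p = 0.276), with every treated value under every control value. It shares 11.2% of its exon bases with Ucp2, which also differed between the populations (1.56 on the log2 scale) and fell with gentamicin in hair cells, from 317 ± 14.3 to 179 ± 10.5 (SD, n = 3; -0.82, adjusted p = 0.00294, limma). The part of the shared exons in the values for Dnajb13 was not tested.

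Dnaja4, a cytosolic class A protein, scored 153, 145 and 143 in HC control and 20.4, 22.3 and 23.3 in NHC control. Every hair cell value lay far above the highest non-hair cell value, with a difference of 2.74 ± 0.10 (adjusted p = 8.05e-10, limma). Of its exon bases, 44.1% are shared with Wdr61 on the other strand, and Wdr61 itself scored 46.0 ± 2.72 and 43.9 ± 6.47 (SD, n = 3) in the same groups.

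Among the other cytosolic partners of HSP70, Dnajb2, a ubiquitin-binding co-chaperone known best from neurons, scored 167, 163 and 165 in HC control against 63.2, 66.6 and 78.3 in NHC control. Dnajb6, a suppressor of polyglutamine aggregation, scored 214, 190 and 202 against 93.0, 101 and 103. Dnaja2 scored 209, 185 and 227 against 125, 124 and 132. None of these ranges overlapped, and the differences were 1.25 ± 0.090, 1.03 ± 0.082 and 0.70 ± 0.076 (log2, SE; adjusted p = 1.69e-07, 4.21e-07 and 5.37e-06, limma).

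The opposite held for Dnajb1, the heat-inducible class B protein, which scored 71.2, 71.1 and 70.0 in HC control and 100, 117 and 100 in NHC control (-0.58 ± 0.11, adjusted p = 0.000392, limma). Its relative Dnajb5 scored 13.3, 14.1 and 13.2 against 18.3, 21.8 and 20.1 (-0.56 ± 0.15, adjusted p = 0.0048). Both were lower in each hair cell replicate than in any non-hair cell replicate. Dnaja1, a farnesylated class A protein, overlapped between the populations, at 211, 195 and 232 against 228, 208 and 236 (-0.08 ± 0.083, adjusted p = 0.419), and this small difference was positive under median-of-ratios scaling.

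Of the 10 members placed in the ER, 5 were higher in hair cells, 2 lower and 3 not called. Over all genes tested, 31.9% were called higher and 42.1% lower. Dnajb11, a lumenal co-chaperone of the ER chaperone Hspa5, scored 139, 125 and 126 in HC control and 63.1, 63.7 and 80.6 in NHC control (0.92 ± 0.11, adjusted p = 9.67e-06, limma). Dnajb14, a membrane protein with its J domain in the cytosol, scored 28.5, 28.3 and 28.5 against 12.1, 11.7 and 15.4 (1.14 ± 0.11, adjusted p = 1.86e-06). Its paralog Dnajb12 (0.82), Dnajc16 (0.59) and Dnajc18 (0.53) were higher too. In the other direction, Dnajb9, which restrains the stress sensor Ire1, scored 19.9, 19.9 and 19.8 in HC control against 32.8, 32.4 and 29.6 in NHC control (-0.67 ± 0.099, adjusted p = 6.90e-05). Dnajc10, an ER disulfide reductase, was lower in hair cells by -0.29 ± 0.078 (adjusted p = 0.00567), a call that ended under median-of-ratios scaling (adjusted p = 0.0754).

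All 7 mitochondrial members passed the test, 3 higher and 4 lower in hair cells, where 74% of all genes tested passed. Dnajc15, a regulator at the inner membrane, scored 39.9, 38.4 and 38.4 in HC control and 18.2, 14.8 and 17.1 in NHC control (1.23 ± 0.11, adjusted p = 7.94e-07, limma). Dnajc11, which binds the complex that shapes the cristae, was higher by 0.73 ± 0.056 and Dnajc28 by 0.64 ± 0.14. In the other direction, Dnajc30, a partner of the ATP synthase, scored 7.38, 7.95 and 8.26 in HC control against 19.9, 15.97 and 16.5 in NHC control (-1.14 ± 0.16, adjusted p = 4.81e-05). Dnajc4 scored 5.78, 5.70 and 6.71 against 12.5, 12.9 and 12.1 (-1.05 ± 0.12, adjusted p = 8.95e-06). The groups did not overlap for any of these 5. Dnajc19, of the protein import motor, was lower by -0.51 ± 0.14 and Dnaja3, the matrix class A protein, by -0.22 ± 0.061, a call that ended under median-of-ratios scaling (adjusted p = 0.174).

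In the nucleus and ribosome group, 1 of 5 members was higher in hair cells (Dnajc17, linked to splicing) and 2 lower. The shares over all genes tested were 31.9% and 42.1%. Dnajc21, a factor of ribosome maturation, was lower by -0.54 ± 0.10 (adjusted p = 0.000412, limma). Dnajc9, a histone chaperone, scored 18.5, 16.95 and 18.5 in HC control and 34.2, 23.0 and 22.4 in NHC control (-0.53 ± 0.19, adjusted p = 0.0241). NHC control replicate 1 stood above the other two, and the call ended without it (adjusted p = 0.106) and without HC control replicate 2 (adjusted p = 0.0689), and also under median-of-ratios scaling (0.0671) and by voom. The markers of cycling cells, Mki67, Top2a and Ccnb1, summed to 9.91–16.98 in HC control and 201–226 in NHC control, and their part in this difference was not tested.

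Of the 3 tested vesicle and endosome members none was called, where 74% of all genes tested were. Dnajc5, the cysteine string protein of synaptic vesicles, scored 217, 218 and 210 in HC control and 192, 216 and 200 in NHC control. Dnajc6, the auxilin that uncoats clathrin vesicles in neurons, spread widely in non-hair cells, at 14.7, 31.9 and 34.1 in NHC control and 16.8, 8.70 and 26.2 in NHC gentamicin. The neuron markers Tubb3, Nefl, Snap25 and Neurod1 were lowest in the same replicate of each group, with sums of 230, 584 and 547 and of 224, 103 and 406, and their part in this spread was not tested.

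**Figure D2:**
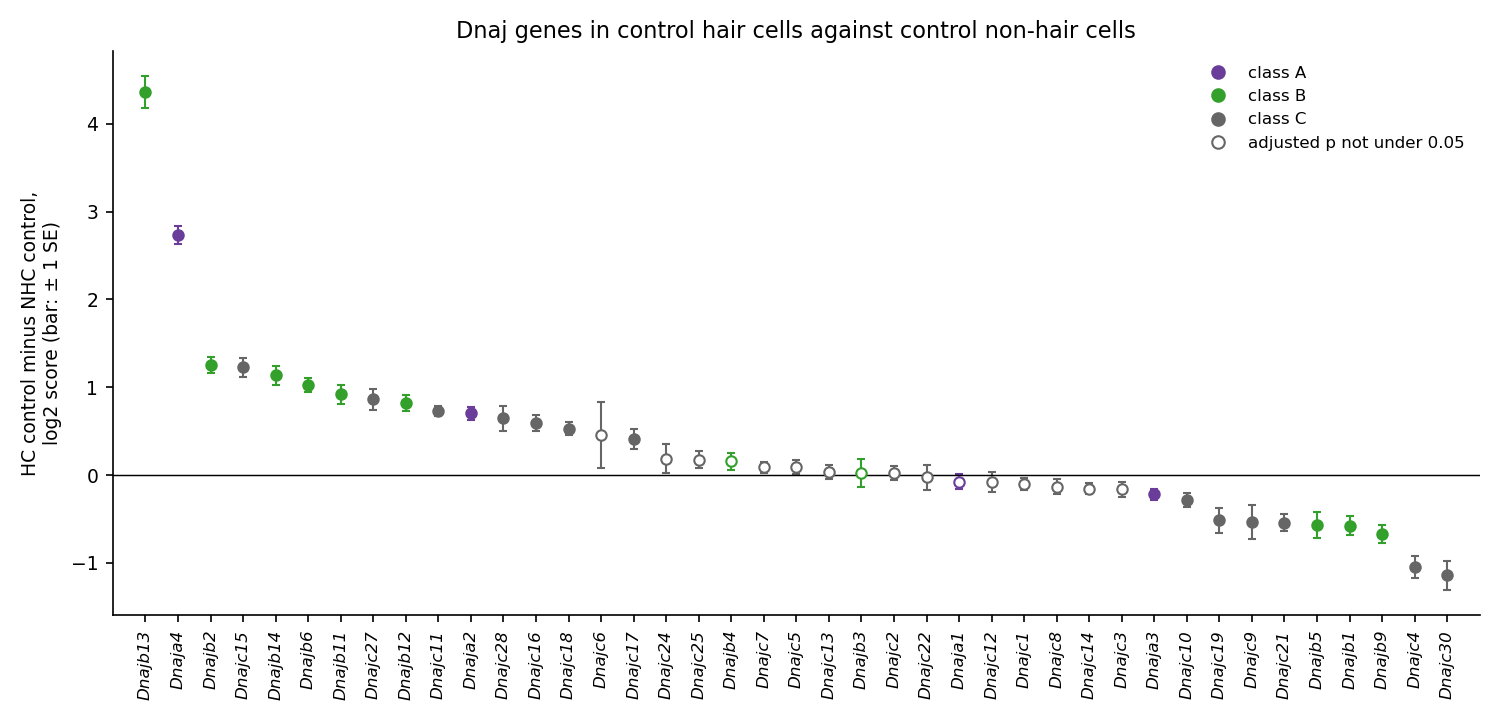
Difference between HC control and NHC control (vertical axis, log2 score) for the 41 tested Dnaj genes in falling order, coloured by class. Points are limma estimates, bars are 1 SE, and open points had an adjusted p of 0.05 or more. Dnajb13 (4.36) and Dnaja4 (2.74) stand above the rest, and Dnajc30 (-1.14) is lowest.

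The second comparison asked how the members responded to 3 h of gentamicin in hair cells. A member was called when its p was under 0.01 with a fold change above 1.2, the thresholds of the study's methods. In hair cells 12 of 41 tested members were called, 8 higher and 4 lower with gentamicin, where 12.7% of all genes tested were called higher and 14.8% lower. At an adjusted p under 0.05 there were 15, or 36.6% of the members tested against 33.1% of all genes. The median log2 response was 0.04 over the members and -0.09 over all genes. Scaling by total reads moved the split to 14 higher and 1 lower, against 17.2% and 9.89% of all genes (median -0.01), because Dnaja1, Dnaja3, Dnaja4, Dnajc5, Dnajc8 and Dnajc27 were then called and Dnajc4, Dnajc10 and Dnajc16 were not.

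All 4 class A genes had positive responses, from 0.20 to 0.36 on the log2 scale, though only 1 was called. That is 25%, against 27.5% of all genes tested. Dnaja2 scored 209, 185 and 227 in HC control and 264, 279 and 253 in HC gentamicin (0.36 ± 0.076, SE; adjusted p = 0.00443, limma), 1.28-fold higher. Dnaja4 scored 153, 145 and 143, then 176, 212 and 155 (0.29 ± 0.10, adjusted p = 0.0474). Every treated value of Dnaja2 and Dnaja4 lay above every control value. The same was true of Dnaja1 at 211, 195 and 232, then 246, 242 and 243 (0.20 ± 0.083, adjusted p = 0.0836, limma). Such separation is a description, since an exact test of 3 against 3 replicates cannot give a p under 0.1. Dnaja3, which serves the mitochondrial matrix, scored 43.4, 45.4 and 44.0, then 51.1, 54.1 and 53.2 (0.26 ± 0.061, adjusted p = 0.00891), and fell short of the call only through its fold of 1.19.

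In class B 1 of 11 tested members was called (9.09%, against 27.5% of all genes tested). Dnajb4, a cytosolic relative of Dnajb1, scored 47.0, 46.7 and 53.1 in HC control and 66.0, 72.8 and 55.8 in HC gentamicin, so that the groups did not overlap. It rose by 0.40 ± 0.095 (SE; adjusted p = 0.00851, limma), 1.32-fold. Dnajb1 itself scored 71.2, 71.1 and 70.0, then 73.5, 68.8 and 70.7, a response of 0.00 ± 0.11 (adjusted p = 0.983) with overlapping groups. The heat shock element core printed for Dnajb4 begins 14 bases before the RefSeq start used here. The same letters lie 182 bases before the start of Dnajc10, which was called lower in hair cells, and other cores lie before Dnaja1, Dnaja4, Dnajb6 and Dnajc27, which were not called. Dnajb6 (0.10 ± 0.082) and Dnajb2 (-0.10 ± 0.090) were not called either.

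Class C, the largest class with 26 of the 41 tested members, had 6 called higher and 4 lower. That is 38.5%, against 27.5% of all genes tested. The larger rises came from members of different compartments. Dnajc28, a mitochondrial protein, scored 10.7, 10.6 and 12.2 in HC control and 17.7, 18.2 and 15.5 in HC gentamicin (0.61 ± 0.14, adjusted p = 0.00716, limma). Dnajc25, a membrane protein placed in the ER, scored 13.4, 13.8 and 12.01, then 18.6, 19.8 and 18.5 (0.54 ± 0.094, adjusted p = 0.00163). Dnajc2, the ribosome-associated zuotin homolog, scored 27.7, 26.7 and 25.3, then 38.6, 38.6 and 36.6 (0.51 ± 0.078, adjusted p = 0.000729). The treated and control replicates were apart for each of the 3 genes, and these calls held without any 1 replicate.

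Dnajc17 scored 13.4, 15.5 and 14.5, then 20.9, 21.8 and 16.9 (0.45 ± 0.12, adjusted p = 0.0124, limma), and its call ended without HC control replicate 1, HC gentamicin replicate 1 or HC gentamicin replicate 2, with p between 0.000368 and 0.013 over the 6 omissions. Dnajc11 scored 89.7, 90.04 and 83.2, then 108, 109 and 107 (0.30 ± 0.056, adjusted p = 0.00223). Dnajc7, which carries clients between HSP70 and HSP90, scored 153, 153 and 152, then 181, 197 and 179 (0.28 ± 0.062, adjusted p = 0.00634). Without HC gentamicin replicate 2 its difference was 0.23, under the fold threshold.

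Among the 4 members that fell, Dnajc30 moved most, with 7.38, 7.95 and 8.26 in HC control and 4.53, 4.46 and 6.10 in HC gentamicin (-0.66 ± 0.16, adjusted p = 0.00974, limma). It shares 26.2% of its exon bases with Bud23 (listed as Wbscr22), which scored 30.3 ± 1.00 and 28.4 ± 2.86 (SD, n = 3). Dnajc10 scored 136, 127 and 132, then 113, 102 and 101 (-0.32 ± 0.078, adjusted p = 0.0094). Dnajc16 scored 57.4, 57.2 and 56.3, then 44.8, 44.8 and 47.0 (-0.32 ± 0.092, adjusted p = 0.02), and Dnajc4 scored 5.78, 5.70 and 6.71, then 5.00, 4.60 and 4.39 (-0.38 ± 0.12, adjusted p = 0.0326). No treated value of the 4 genes reached a control value. Dnajc4 lost its call without any 1 of the 6 replicates (p between 0.0101 and 0.0445) and Dnajc16 without any but HC gentamicin replicate 3 (p up to 0.0154). Dnajc14, an ER membrane protein, is not in the ER group here and is counted with the members of other or less known role. It scored 68.1, 63.5 and 70.7, then 55.5, 56.1 and 60.9 (-0.23 ± 0.066, adjusted p = 0.0202, limma), and missed the fold threshold at 1.17.

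**Figure D3:**
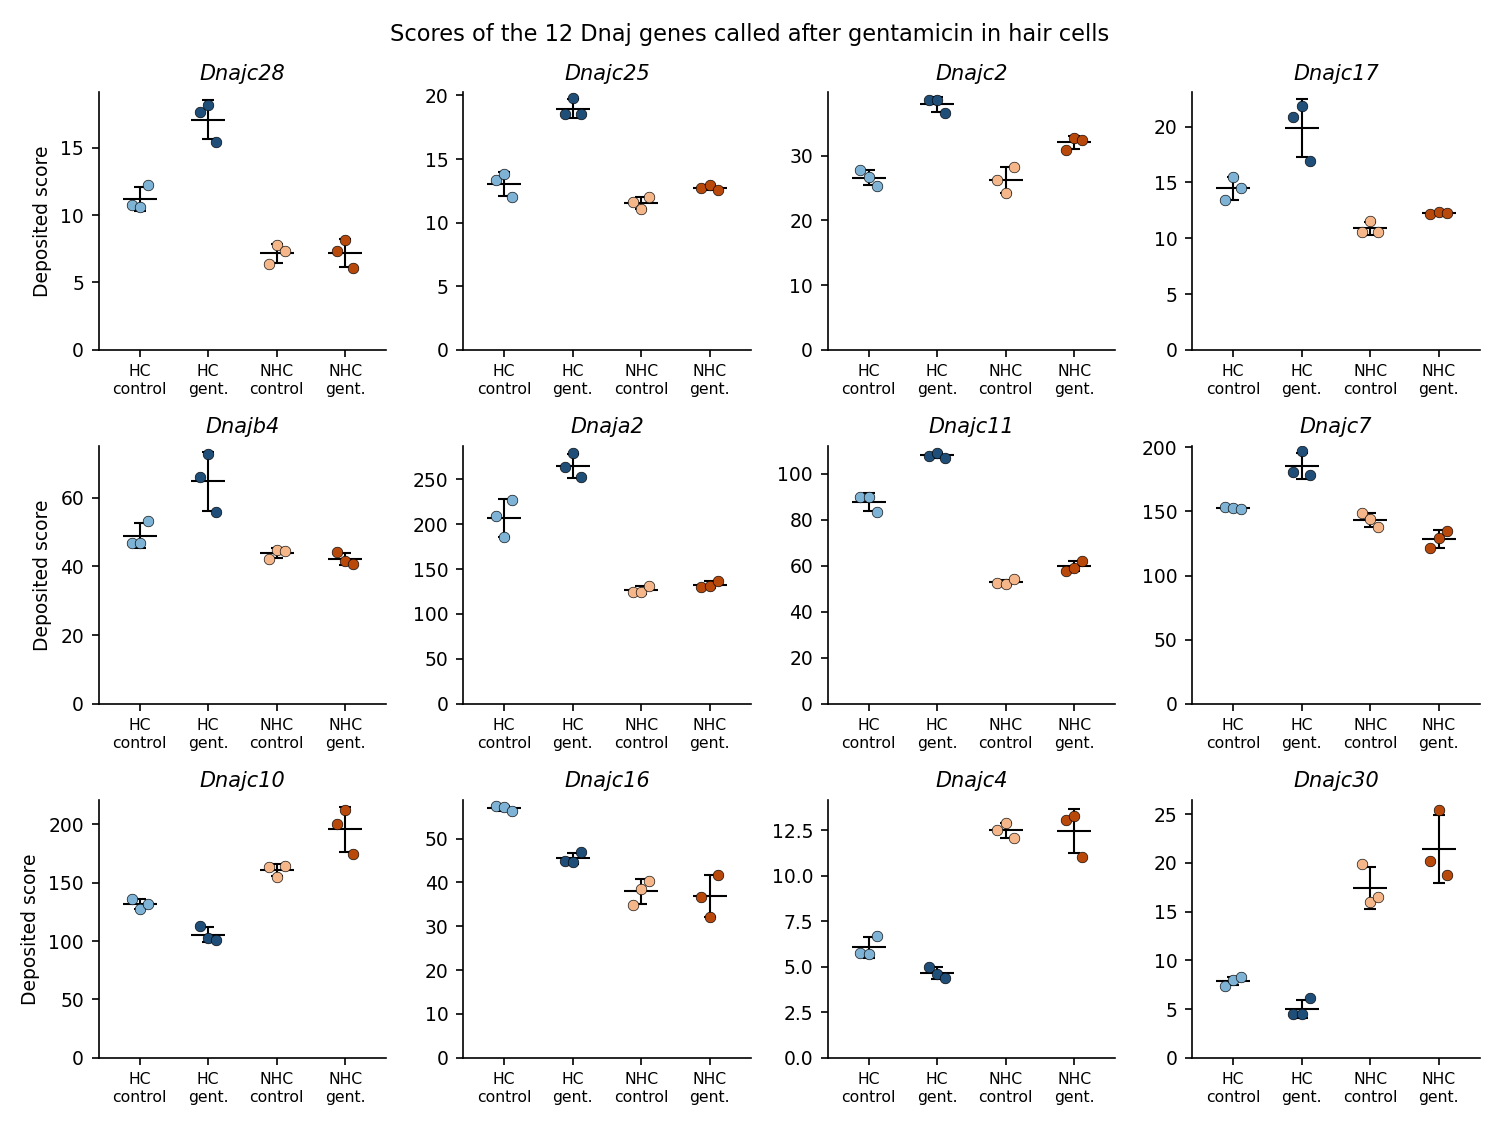
Deposited score (vertical axis, linear from 0) of the 12 members called in hair cells, in every replicate of the 4 groups. Points are replicates, horizontal bars are means and error bars SDs (n = 3). Dnajc28 rose from 11.2 to 17.1 in hair cells and stayed near 7.2 in non-hair cells, while Dnajc10 fell from 132 to 106 in hair cells beside 161 and 196 in non-hair cells.

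By role, the cytosolic HSP70 partners had 3 called higher and 0 lower of 9 (median 0.20), the ER group 1 higher and 2 lower of 10 (median -0.07), the mitochondrial group 2 higher and 2 lower of 7 (median -0.06), the nucleus and ribosome group 2 higher and 0 lower of 5 (median 0.23), and the vesicle group 0 of 3 tested (median 0.08). The 7 tested members of other or less known role had 0 called (median -0.10). By the same rule 12.7% of all genes tested were called higher and 14.8% lower (median -0.09). Counted at an unadjusted p under 0.05 across the family, 13 members were higher and 6 lower, by limma-trend and by limma voom alike, where 18.2% of all genes were higher and 25.9% lower by limma-trend. Both directions together came to 46.3% of the members and 44.2% of all genes.

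The partners of the Dnaj proteins were also read. Of 15 HSP70 family genes tested, 1 was called higher and 2 lower in hair cells, with a median of -0.18. That is 20% called, against 27.5% of all genes tested. Hspa8, the constitutive cytosolic HSP70, scored 2314 ± 93.3 in HC control and 1665 ± 115 in HC gentamicin (-0.48 ± 0.12, SE; adjusted p = 0.0134, limma). Hspa5, the ER HSP70, scored 852 ± 116 and 612 ± 41.3 (-0.47 ± 0.13, adjusted p = 0.0195), and Hspa14, a ribosome-associated HSP70 that works with Dnajc2, scored 26.5 ± 1.15 and 35.8 ± 2.28 (0.44 ± 0.087, adjusted p = 0.00338). The heat-inducible Hspa1a and Hspa1b were at 13.1 ± 7.38 and 14.9 ± 9.31 in HC control and at 7.33 ± 2.98 and 9.05 ± 1.98 in HC gentamicin, differences that did not pass (adjusted p = 0.264 and 0.321). Of the 10 nucleotide exchange factors, which release the client from HSP70, 1 was called (10%, against 27.5% of all genes tested). It was Bag1, which fell from 70.5 ± 2.42 to 49.97 ± 0.679 (-0.50 ± 0.060, adjusted p = 0.000206, limma).

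In non-hair cells, 4 of 41 tested members were called higher and 0 lower, where 3.18% of all genes tested were called higher and 2.26% lower. At an adjusted p under 0.05 the count was 0 (limma; lowest adjusted p 0.111; 0.342% of all genes), against 8 at an unadjusted p under 0.05 (19.5% of the members, 17.1% of all genes), and limma voom gave the same counts. The median log2 response was 0.06 over the members and -0.01 over all genes. The count of 4 fell to 0 without NHC control replicate 2, without NHC gentamicin replicate 2, or when only the NHC groups were fitted. Over all genes tested the share called fell too, from 5.45% to 2.55%, 2.85% and 2.38% in the same order.

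Dnajb11 scored 63.1, 63.7 and 80.6 in NHC control and 82.0, 98.6 and 91.2 in NHC gentamicin (0.39 ± 0.11, adjusted p = 0.113, limma). Dnajc2 scored 26.2, 24.2 and 28.3, then 30.9, 32.7 and 32.4 (0.29 ± 0.078, adjusted p = 0.111). The treated values of both lay above the controls, for Dnajb11 by a narrow gap to NHC control replicate 3. Dnajc10 scored 164, 155 and 164, then 200, 213 and 175 (0.28 ± 0.078, adjusted p = 0.12), and Dnajc8, a splicing factor, 70.2, 63.4 and 71.4, then 78.6, 94.9 and 75.4 (0.27 ± 0.087, adjusted p = 0.158). NHC gentamicin replicate 2 was the highest treated replicate of all 4 genes, and Dnajc8 was also lost with the replicate block. The same replicate had the highest mesenchyme marker sum of the 3 treated, at 8908 against 6964 and 5512 (4728–6486 in NHC control), and the highest cycling cell sum, at 326.5 against 197 and 186. Its sums were lowest for supporting cell markers, at 233 against 353 and 451 (364.5–591 in NHC control), and for neuron markers. As given above, the supporting cell list does not mark the non-hair cells here. The part of these marker shifts in the 4 calls was not tested. Of the HSP70 family, Hspa14 was called here too (35.0 ± 3.30 to 44.4 ± 2.23, SD, n = 3; 0.35 ± 0.087, adjusted p = 0.101).

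**Figure D4:**
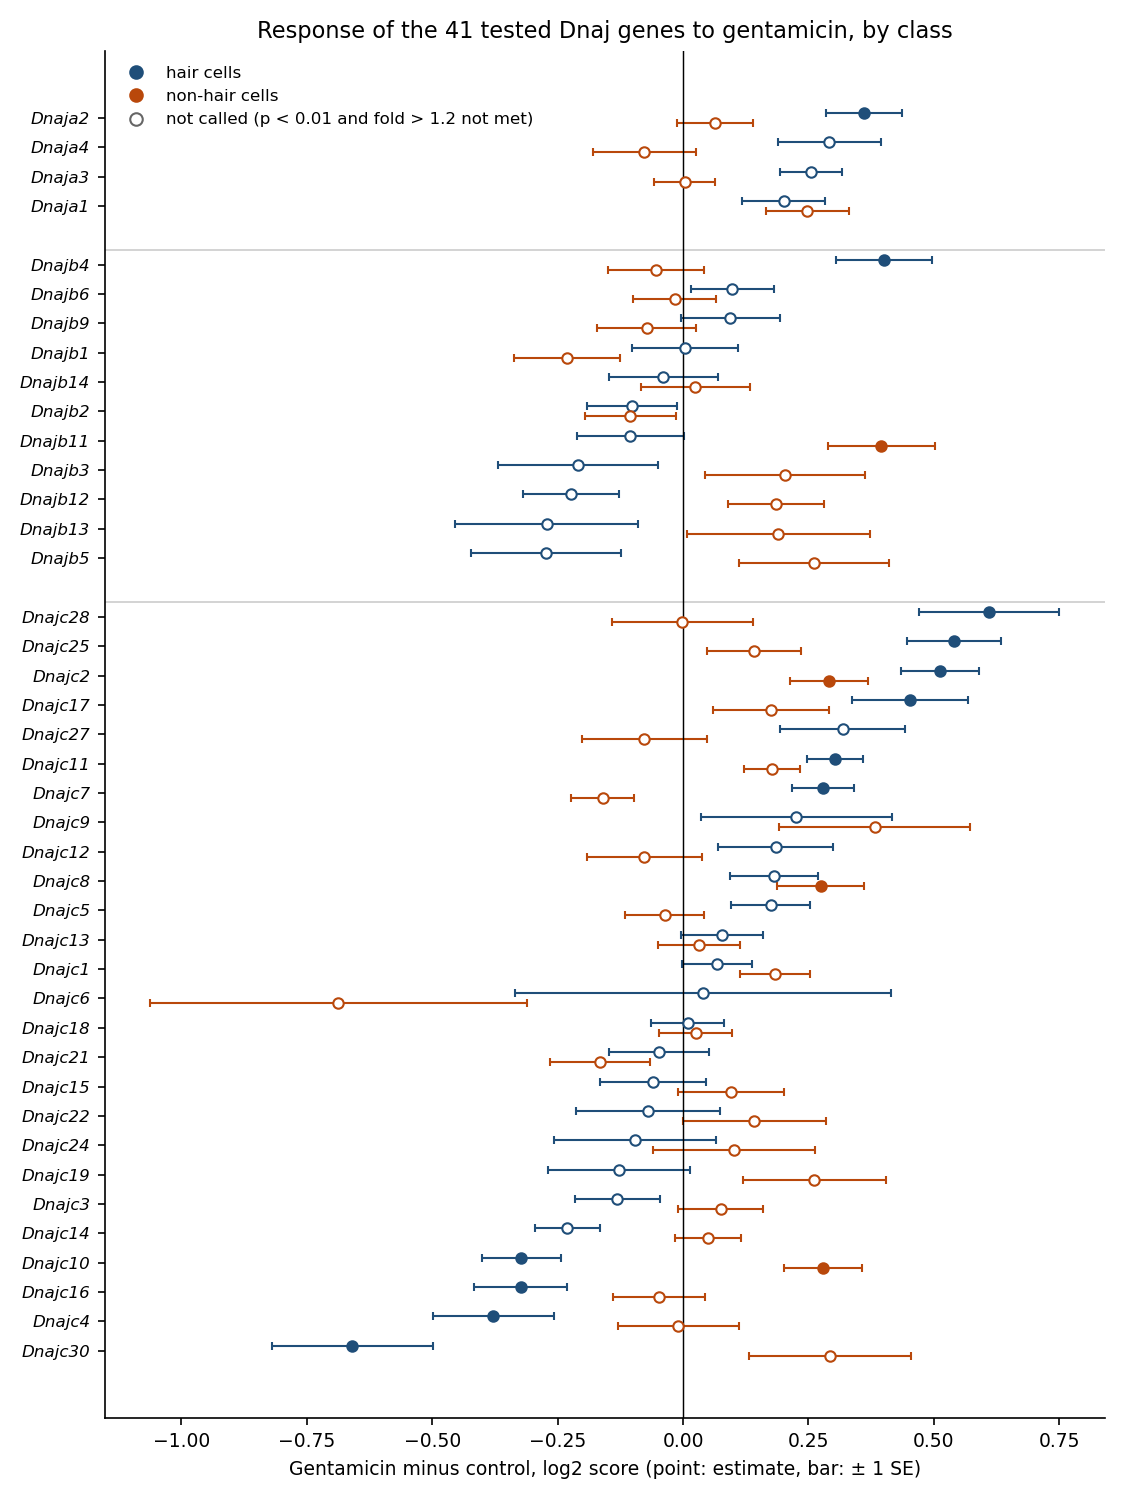
Response to gentamicin (horizontal axis, log2 score, treated minus control) of the 41 tested members in hair cells (blue) and non-hair cells (orange), grouped by class. Points are limma estimates, bars are 1 SE, and filled points were called. Dnajc10 is filled on both sides of 0, at -0.32 in hair cells and 0.28 in non-hair cells.

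The last comparison tested whether the responses of the populations differed. At an adjusted p under 0.05, 5 of 41 members did, 2 with the higher response in hair cells and 3 with the lower, where 6.85% of all genes tested were called higher and 6.56% lower. The median difference of responses was -0.02 over the members and -0.07 over all genes. Dnajc10 fell in hair cells and was higher in treated non-hair cells, as the scores above show, with a difference of -0.60 ± 0.11 (SE; adjusted p = 0.00729, limma). Dnajc7 scored 149, 144 and 138 in NHC control and 121, 129 and 135 in NHC gentamicin (-0.16 ± 0.062, adjusted p = 0.228), so that its responses differed by 0.44 ± 0.088 (adjusted p = 0.0104). Both calls held in every alternative tried, 12 omissions of 1 replicate included.

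Dnajc30 scored 19.9, 15.97 and 16.5 in NHC control and 20.2, 25.4 and 18.8 in NHC gentamicin, overlapping groups, and its responses differed by -0.95 ± 0.23 (adjusted p = 0.0207, limma). The adjusted p was 0.0515 without HC control replicate 2, 0.0534 without HC gentamicin replicate 2 and 0.0548 without NHC control replicate 2. The gene that shares its exons, listed as Wbscr22, went from 28.9 ± 2.06 to 37.6 ± 4.15 (SD, n = 3) in non-hair cells, and its responses differed by -0.47 (adjusted p = 0.0551). The part of the shared exons in the value for Dnajc30 was not tested.

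Dnajb4 and Dnajb11 lay at the threshold. Dnajb4 scored 42.1, 44.7 and 44.5 in NHC control and 44.1, 41.6 and 40.8 in NHC gentamicin, overlapping groups, and its responses differed by 0.45 ± 0.13 (adjusted p = 0.0467, limma). Dnajb11 was not called in hair cells (139, 125 and 126, then 126, 110 and 127) and its responses differed by -0.50 ± 0.15 (adjusted p = 0.0495). Each call ended in 10 of 12 omissions of 1 replicate, with adjusted p up to 0.11 for Dnajb4 and 0.117 for Dnajb11, and with the replicate block (0.0626 and 0.0551). Scaling by total reads turned the split to 6 members higher and 2 lower, against 9.32% and 4.45% of all genes. Without HC control replicate 2 or NHC control replicate 2 the count of 5 was 2. Without HC control replicate 1, HC gentamicin replicate 1 or HC gentamicin replicate 2 it was 3. The share of all genes called, 13.4% in the main fit, also moved with omissions of 1 replicate, as given below. Among the partners, Hspa8 (-0.61 ± 0.18, adjusted p = 0.0411) and Bag1 (-0.46 ± 0.085, adjusted p = 0.00735) also had the lower response in hair cells.

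The 4 members not tested had few reads. Dnajc5b, a testis-type relative of the cysteine string protein, had 37 reads over the HC control replicates (13, 4 and 20), 23 in HC gentamicin (4, 5 and 14) and 0 in both NHC groups. Its reads were found in every hair cell replicate and in no non-hair cell replicate, where a count of 0 allows up to 3 reads per replicate by counting error alone. Dnajb7 had 4, 4, 5 and 5 reads in HC control, HC gentamicin, NHC control and NHC gentamicin, and over the 12 replicates Dnajb8 had 2 and Dnajc5g had 1.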

How the data were processed

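Messenger RNA of sorted cells was sequenced in 3 replicates of each of 4 groups as single-end 50 bp reads. Per the study's methods, the authors trimmed the reads, aligned them to mm10 with TopHat 2 in PartekFlow and computed a normalized read score for each gene. The gene annotation, the scaling factor and the use of strand are not given in the sources used here. The deposited score was taken as reads scaled per replicate with an offset of 1, not as the RPKM that the methods name, because 1 step per replicate gave whole reads (within 0.02) for 77.6–79.0% of values up to 20 reads. The remaining values were not whole, so recovered reads are approximate.

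The difference between groups was tested with limma 3.58.1 (R 4.3.3; trend, no replicate block) on log2 of the score in 1 model over the 4 groups, for genes with at least 100 recovered reads. Gentamicin responses were called at p under 0.01 and a fold change above 1.2, and the other comparisons at a Benjamini-Hochberg adjusted p under 0.05 over the 16088 genes tested. The scripts were tested on simulated data. Because the control of each population enters both its response and the comparison of populations, and the responses enter their difference, these results share samples. Exon lengths and overlaps came from GENCODE M21 (GRCm38, the assembly also called mm10), and promoters from RefSeq. Tables were read with pandas 2.3.3 in Python 3.11.15.

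Named were all class A members, Dnaja2 and Dnajb4, the 5 members of largest difference per comparison and direction among those called with a score of at least 5, members called for the difference of responses, the highest levels per kb, and the main members of each role. The members, the role, partner and marker lists and the alternatives were chosen with earlier results of these data known. Replicates are called biological in the study, but animals per replicate are not given. Same-numbered replicates deviated together between HC control and NHC control (correlations across genes of 0.216, 0.316 and 0.200), so the fit with the replicate block is given there. Counting intervals and the floor of 3 reads cover counting error only. Statements that groups do not overlap are descriptions, and the share of all genes tested without overlap is not given here. Protein sequences were not used here. The list of J-domain proteins under other symbols is not reported here.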

Additional observations from a re-analysis of the deposited data

Results flagged for a closer look

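The response to gentamicin differed between hair cells and non-hair cells, by limma's test of the difference itself, for 5 of the 41 tested members (12.2%), against 13.4% of all genes tested, so the share was no higher than the background. On the log2 scale, the hair cell response minus the non-hair cell response was -0.601 for Dnajc10, 0.439 for Dnajc7, -0.952 for Dnajc30, -0.500 for Dnajb11 and 0.455 for Dnajb4. Dnajc10 and Dnajc7 were called in all 19 alternatives, Dnajc30 in 16, Dnajb4 in 6 and Dnajb11 in 3. Groups of 3 replicates were not searched for a replicate standing apart.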

How the results depend on the processing

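The 12 members called in hair cells became 2 at a fold above 1.5 (4.88%, against 12.9% of all genes), and 9–13 without 1 replicate (20.4–25.7% of all genes). Their median of 0.040 was 0.135 with scaling by total reads, 0.068 at a minimum of 1000 reads, 0.009 with no filter and 0.007–0.068 without 1 replicate. In non-hair cells the count of 4 became 0 when only the groups compared were fitted, at an adjusted p under 0.05 and at a fold above 1.5 (2.38%, 0.342% and 1.36% of all genes), and 0–4 without 1 replicate (2.55–9.77%), and the median of 0.064 was 0.088 with scaling by total reads, 0.032 with no filter and 0.032–0.091 without 1 replicate. The 5 differences of responses became 8 with scaling by total reads, 3 with no filter, 3 by voom and 2–6 without 1 replicate (13.8%, 10.1%, 11.5% and 7.21–14.8% of all genes), and their median of -0.016 was 0.057 with scaling by total reads and -0.048 to 0.049 without 1 replicate. The 25 differences between populations became 16 at a fold above 1.5 and 24–26 without 1 replicate (51.9% and 69.2–71.6% of all genes), and their median of 0.089 was 0.063 with scaling by total reads, 0.214 by median-of-ratios, 0.035 with no filter and 0.070–0.096 without 1 replicate. The cause of these shifts was not tested.

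With the replicate block, 11 members were called in hair cells (26.8%, against 28.7% of all genes tested) and 3 in non-hair cells (7.32%, against 5.46%). For the difference of responses 3 were called and between populations 26, where the share of all genes is not given here. The block ended the calls of Dnajc4 in hair cells, Dnajc8 in non-hair cells, and Dnajb4 and Dnajb11 for the difference of responses. It added Dnajc14 between populations and changed no other call. In hair cells the same-numbered replicates correlated at 0.0367, 0.0522 and 0.0369 and in non-hair cells at 0.208, -0.232 and 0.683, so the numbers were not taken to pair the treated and control samples.

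Of the values for named members under the alternatives, 567 kept their direction and side of the threshold, 73 were no longer past it, 13 were newly past it and 8 changed sign, all of them small differences that were never called. Dnaja3 in non-hair cells was -0.036 without NHC control replicate 1, -0.009 without NHC gentamicin replicate 1 and -0.008 without NHC gentamicin replicate 3. Its range without 1 replicate was -0.036 to 0.036. The difference of responses of Dnaja1 was -0.108 to 0.016 without 1 replicate, and it was 0.026 with scaling by total reads, 0.016 without HC control replicate 3, 0.004 without NHC control replicate 2 and 0.011 without NHC gentamicin replicate 2, and its difference between populations was 0.048 by median-of-ratios. At a depth near 25116392 reads per replicate (the median), members with scores close to 1 rest on few reads, and their fitted differences depend on the offset.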
